A study of Mus musculus with 6 samples.

Results

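The genes of DNA replication and S phase were compared between control and Zeb2 mutant mouse retina on postnatal day 2. The 44 genes were chosen by name for their role in copying DNA: origin licensing, helicase activation, DNA polymerases, the sliding clamp and its loader, single-strand binding, joining of Okazaki fragments, nucleotide supply, chromatin assembly and the E-type cyclins. All 44 were found among the 20175 genes of the table, and all passed the filter of a mean of at least 10 normalised counts. There were 3 control libraries, labelled only as control, and 3 libraries of genotype Zeb2 loxP/loxP with the αCre transgene (both Zeb2 copies floxed), here called Zeb2 mutant. αCre is known as a Cre driver active in progenitors of the peripheral retina, so cells outside its reach keep Zeb2 and are part of each sample. The strain, the alleles and any transgene of the controls, and whether animals were pooled, are not stated.

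DNA replication starts at origins that are licensed in G1 phase, when the origin recognition complex, CDC6 and CDT1 load the MCM helicase onto DNA. At S phase entry, cyclin E with its kinase partner and other factors turn the loaded MCM ring into an active helicase with CDC45 and the GINS complex. DNA polymerase alpha-primase, epsilon and delta then copy the strands with the help of PCNA, replication factor C and the single-strand binding protein RPA. Many of these genes are known targets of E2F transcription factors, and their transcripts are abundant in cycling cells. In the retina at this age the cycling cells are late progenitors, which give rise to rods, bipolar cells and Müller glia.

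The libraries held 26041200 to 32614805 recovered reads on genes, and each of the 44 genes had at least 69 reads in every library. Zeb2, the targeted gene, had 5989.7, 6448.7 and 5916.7 normalised counts in the controls, against 5581.4, 4273.6 and 5049.7 in the mutants, so the groups did not overlap. It did not pass the test over all genes (log2 fold change -0.31 ± 0.090 SE, limma adjusted p = 0.129), and the exact 2-sided permutation test gave p = 0.1, below which 3 against 3 libraries cannot go. Of 19 retinal progenitor markers and 13 photoreceptor markers, all passed the filter on low values. Nothing in the labels says that the libraries came from separate animals, so the p-values reflect variation among these libraries alone, part of which may be technical. In whole retina, fewer cycling cells and less RNA of these genes per cell cannot be told apart.

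The replication genes lay slightly lower in Zeb2 mutant retina, and 1 of them passed the test. Pole, the catalytic subunit of the leading-strand DNA polymerase epsilon, fell to 75.5% of its control level. In total 42 of the 44 genes had a log2 fold change below 0, against 52.0% of all 16064 genes tested. Their median log2 fold change was -0.16, which corresponds to a level 10.8% lower, while the median of all genes tested was -0.0067. Folds are on the log2 scale of the normalised count with 1 added. The 44 genes moved together by library, with mutant library 3 the lowest of all for 38 of them. Counts of these genes set against shares of all genes are therefore not counts of independent observations.

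Over all genes limma called 184 of 16064 (1.15%). At a limma adjusted p under 0.05, 1 of the 44 genes was called lower, against 0.218% of all genes tested, and 0 were called higher, against 0.928%. At an unadjusted p under 0.05, 18 of the 44 were lower (background 8.31%) and 0 were higher (background 9.01%). edgeR and DESeq2 on the recovered reads called 1 and 7 lower (backgrounds 0.205% and 2.18%) and 0 higher. The 7 were Pole, Mcm2, Mcm3, Mcm7, Cdt1, Pola2 and Rrm1. In 16 of the 44 genes every mutant library lay below every control library, a pattern that 11.7% of all genes showed, and in 0 genes did every mutant library lie above every control library, a pattern that 11.5% of all genes showed. These shares of all genes are the background for every later count. They also hold for each single gene described below as having groups without overlap.

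**Figure D1:**
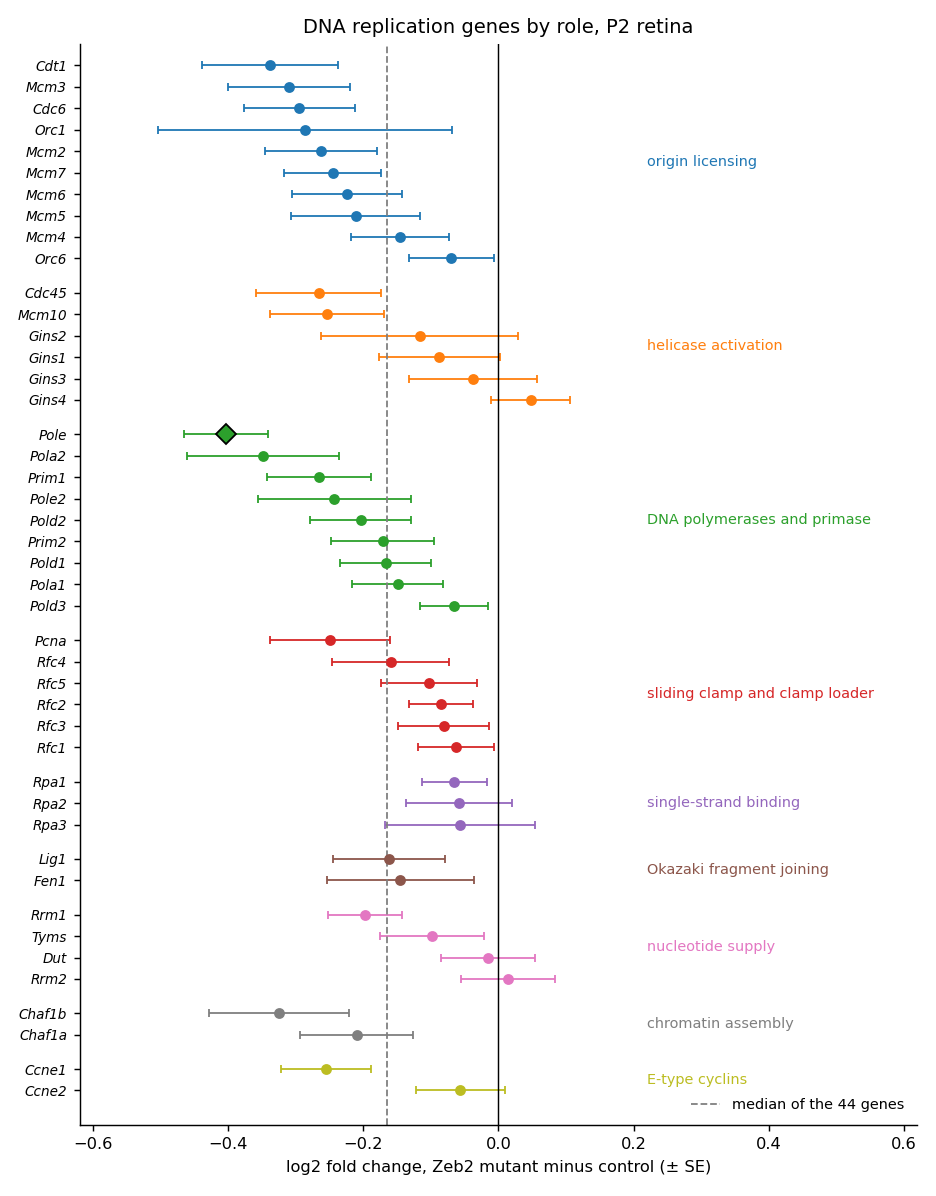
Log2 fold change of each of the 44 genes, Zeb2 mutant minus control, on the horizontal axis, with bars for ± 1 SE from limma (3 libraries a group) and genes grouped and coloured by role. The diamond marks Pole, the 1 gene past the adjusted threshold at -0.40, the dashed line is the median of -0.16, and Gins4 and Rrm2 are the 2 genes to the right of 0.

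The libraries within each group were not alike. Measured as the median over the 44 genes of the log2 deviation from the control mean, the controls stood at 0.047, 0.033 and -0.085 and the mutants at -0.10, -0.13 and -0.27. Control library 3 was the lowest of the 3 controls for 34 of the 44 genes, and mutant library 3 was the lowest of all 6 libraries for 38. Mutant library 1 and control library 3 therefore lay close together, and mutant library 3 stood apart. Mutant library 3 was below every control for 41 genes, mutant library 2 for 27 and mutant library 1 for 23. Without mutant library 3 the median log2 fold change was -0.11 with 37 genes below 0, and without control library 3 it was -0.22 with 41 below 0.

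**Figure D2:**
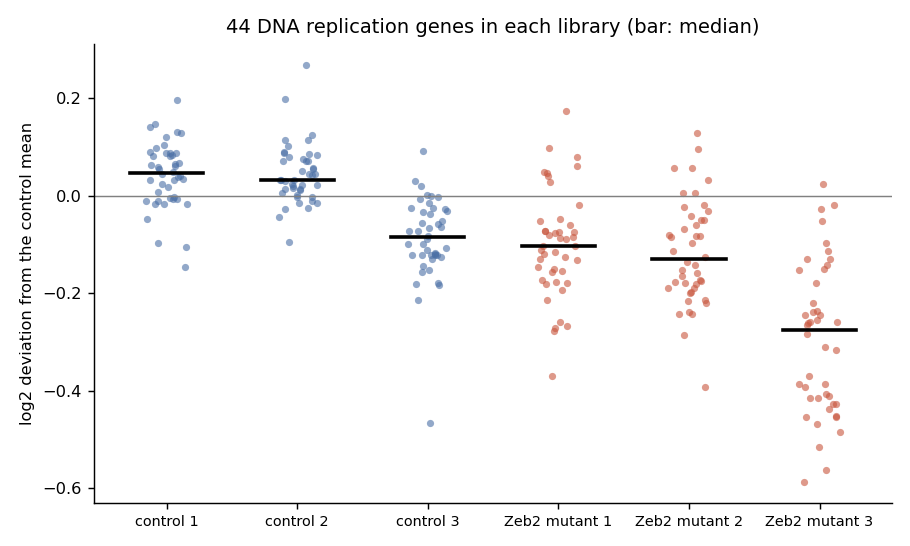
Log2 deviation of each of the 44 genes from its control mean (vertical axis) in each of the 6 libraries, with 1 point per gene and a black bar for the median of the library. Control libraries 1 and 2 centre just above 0, control library 3 and mutant libraries 1 and 2 between -0.085 and -0.13, and mutant library 3 at -0.27.

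All 10 licensing genes lay below their control level, with a median log2 fold change of -0.25 and a range of -0.34 to -0.070. With limma 0 passed the test, and 6 were lower at an unadjusted p under 0.05, against 8.31% of all genes. Cdc6, the ATPase that helps load the MCM ring, had 843.4, 810.9 and 728.6 normalised counts in the controls, against 693.2, 650.2 and 598.2 in the mutants. The groups did not overlap, with means of 794 ± 59.2 and 647 ± 47.6 (SD, n = 3 each), but the difference did not pass the test (log2 fold change -0.29 ± 0.082 SE, limma adjusted p = 0.116). Cdt1, the licensing factor destroyed in S phase to prevent a further round of loading, had 1532.3, 1474 and 1324.3 against 1188.8, 1276.2 and 976. Its groups did not overlap either (log2 fold change -0.34 ± 0.10 SE, limma adjusted p = 0.137). Orc1, the origin recognition subunit that comes and goes with the cell cycle, was the scarcest gene of the set, with 111.8, 117.5 and 70.2 normalised counts in the controls, against 87.7, 82.2 and 70.1 in the mutants, and Orc6, another subunit, stood at 999 ± 57.2 and 951 ± 32.1. For both the groups overlapped.

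The 6 MCM subunits, which form 1 ring with a single copy of each, differed in level per kb of exon but less in fold change. Per kb of annotated exon, the control level was highest for Mcm7 at 1494 ± 92.6 normalised counts (SD, n = 3) and lowest for Mcm2 at 739 ± 70.0, with Mcm6 at 1279 ± 99.5, Mcm3 at 1081 ± 77.0, Mcm5 at 944 ± 77.7 and Mcm4 at 908 ± 81.1 between them. Mcm5 and Mcm4 differed by less than their spread. The exon lengths merge all isoforms, so this order is uncertain. Mcm2 had the longest of the 6, at 6956 bases. Its control mean of 5138 normalised counts was above those of Mcm3, Mcm5 and Mcm4 (4057, 3768 and 3258). Mcm3, the largest fold of the 6, had 4241.3, 4205.7 and 3724.2 normalised counts in the controls, against 3581.1, 3434.7 and 2834.6 in the mutants. Every mutant lay below every control for Mcm2, Mcm3 and Mcm7, while for Mcm4, Mcm5 and Mcm6 control library 3 was below 1 or more mutants. The log2 fold changes ran from -0.31 ± 0.091 (SE) for Mcm3 to -0.15 ± 0.073 for Mcm4 (limma adjusted p = 0.129 and 0.352). Of the 50-base words in Mcm7 transcripts, 16.5% also occur in Gm5487, so reads of Mcm7 may be split between them.

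Promoters of these genes are shown because E2F sites near the start are what many replication genes are known to share. The words TTTCCCGC and TTTGGCGC, 2 forms of the E2F site, were searched on both strands of RefSeq promoter windows of 300 bases (build GRCm38.p6, from 250 bases before the RefSeq start to 50 after it). No matches of the words overlapped in these genes. Of the 44 genes 36 matched a window, and Pole, the called gene, was among the 8 that did not, with Mcm4, Gins1, Gins2, Gins4, Prim2, Rfc2 and Ccne2. A word was held by 12 of the 36 (33.3%), against 486 of 27025 genes in the RefSeq table (1.8%, or 1.56% of 32851 windows) and 3.24% of the genes tested. By role the words were in 6 of 9 licensing genes, 4 of 7 polymerase genes, 1 of 3 helicase activation genes and 1 of 5 clamp and loader genes, and in 0 of the 12 matched genes of the other roles. The 12 genes with a word had a median log2 fold change of -0.22 and the 24 without a word -0.18, both below 0 and with overlapping ranges (-0.34 to -0.037 and -0.35 to 0.014). A match is a description of the letters and does not show that a factor binds there. Of 22 G2-M genes, 19 matched and 0 held a word in their windows.

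The genes with a word within the 150 bases before the RefSeq start, where GENCODE annotates no exon, were Cdc6, Mcm5, Mcm6 and Pola1, the last encoding the catalytic subunit of polymerase alpha. Their 150 bases before the RefSeq start are printed in the direction of the gene, with the E2F words in capitals, to show their different places and strands. The Cdc6 stretch is chr11:98908001-98908150 on the plus strand, that of Mcm5 chr8:75109359-75109508 on the plus strand, that of Mcm6 chr1:128359706-128359855 on the minus strand and that of Pola1 chrX:93632156-93632305 on the minus strand. Mcm6 has 2 copies of TTTGGCGC, which begin at positions -110 and -47 from the RefSeq start, and the other 3 genes have 1 word each in the reverse orientation. GENCODE starts Cdc6 further upstream, at 98907801, so the Cdc6 stretch lies within the gene in that annotation, outside its exons.
Cdc6: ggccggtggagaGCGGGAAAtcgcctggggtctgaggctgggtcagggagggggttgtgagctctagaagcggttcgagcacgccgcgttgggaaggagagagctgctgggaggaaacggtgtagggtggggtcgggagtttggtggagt
Mcm5: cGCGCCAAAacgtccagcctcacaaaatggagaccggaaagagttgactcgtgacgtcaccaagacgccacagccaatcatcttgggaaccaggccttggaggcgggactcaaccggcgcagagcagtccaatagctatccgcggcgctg
Mcm6: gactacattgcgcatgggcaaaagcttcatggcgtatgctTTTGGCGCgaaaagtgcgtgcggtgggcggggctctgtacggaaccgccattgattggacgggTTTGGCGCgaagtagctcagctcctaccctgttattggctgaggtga
Pola1: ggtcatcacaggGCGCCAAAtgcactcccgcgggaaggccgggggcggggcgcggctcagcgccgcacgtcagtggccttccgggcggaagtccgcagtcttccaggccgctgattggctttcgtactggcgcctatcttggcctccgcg

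Among the helicase activation genes the GINS subunits stood nearer to their control level than Mcm10 and Cdc45. Mcm10, a factor of helicase firing, had 760.3, 778.4 and 706.6 normalised counts in the controls, against 671, 656 and 560.6 in the mutants, with no overlap (log2 fold change -0.25 ± 0.084 SE, limma adjusted p = 0.171). Cdc45, part of the active helicase, had 1061 ± 82.2 and 884 ± 96.5 (SD, n = 3 each), also without overlap (limma adjusted p = 0.187). The 4 GINS genes, whose products bind the MCM ring together, had a median of -0.062, and their groups overlapped. Gins4 had 990.3, 1007.1 and 984.1 in the controls, against 1022.9, 1086.5 and 975 in the mutants, with a log2 fold change of 0.048 ± 0.059 (SE, limma adjusted p = 0.731). In Gins2, 67.3% of the exon bases lie opposite exons of Gse1, and whether reads were counted by strand is not stated.

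Pole (ENSMUSG00000007080, GRCm38 chromosome 5, 110286306 to 110337474, plus strand) was the called gene. Its normalised counts were 1385.4, 1465.6 and 1287.1 in the controls, against 1066.2, 1049.8 and 1007.5 in the mutants. The highest mutant was well below the lowest control, and the mutants differed little among themselves. The means were 1379 ± 89.4 and 1041 ± 30.3 (SD, n = 3 each), a log2 fold change of -0.40 ± 0.062 (SE, limma adjusted p = 0.0244), which ranked 88 of 16064 genes by p. The exact 2-sided permutation test of its 6 values gave p = 0.1, the smallest possible. The call was lost without control library 1 or 2 (limma adjusted p = 0.124 and 0.0722) and without mutant library 2 or 3 (0.0828 and 0.0705), at log2 fold changes between -0.36 and -0.41.

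The other 8 polymerase and primase genes were lower by less, from -0.35 to -0.066 on the log2 scale, and 0 of the 8 passed the test with limma. Pole2, the accessory subunit of polymerase epsilon, had 390.8, 399.7 and 340.2 normalised counts in the controls, against 349.8, 329.9 and 277.3 in the mutants, so that control library 3 lay below mutant library 1. Its log2 fold change was -0.24 ± 0.11 (SE, limma adjusted p = 0.315). Within the alpha-primase complex, which lays the primers, the B subunit gene Pola2 stood at -0.35 ± 0.11 and the primase gene Prim1 at -0.27 ± 0.077 (limma adjusted p = 0.160 and 0.127). In both of them the groups did not overlap. Pola1 and Prim2, the large primase subunit, stood at -0.15 and -0.17 with overlapping groups. Of polymerase delta, which copies the lagging strand, Pold1 had 2212 ± 61.7 and 1975 ± 173 and Pold2 2233 ± 17.3 and 1946 ± 206, both without overlap, and Pold3 had 2268 ± 75.2 and 2167 ± 84.6.

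Pcna, the sliding clamp, had the highest level of the 44 genes per kb of exon, at 2066 ± 189 normalised counts per kb in controls. The exon lengths merge all isoforms, so this rank is uncertain. Rrm1 had a higher control mean, 7638 against 4958 normalised counts, over 11012 merged exon bases against 2400 for Pcna. The normalised counts of Pcna were 5230.5, 5207.6 and 4435 in the controls, against 4552.2, 4256.2 and 3709.1 in the mutants. Control library 3 lay below mutant library 1, and the difference did not pass the test (log2 fold change -0.25 ± 0.088 SE, limma adjusted p = 0.194). The 5 loader genes Rfc1 to Rfc5 stood at a median of -0.085, between -0.16 for Rfc4 and -0.063 for Rfc1, and Rfc2 alone of them had groups that did not overlap. In Pcna 19.1% of the 50-base words also occur in the pseudogene Pcna-ps2.

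The 3 single-strand binding genes had overlapping groups, and 0 of them reached an unadjusted limma p under 0.05. Rpa1 had 3072.1, 3052.8 and 2886.4 normalised counts in the controls, against 2880.5, 2955.8 and 2776.7 in the mutants, with a log2 fold change of -0.065 ± 0.047 (SE, limma adjusted p = 0.530). Rpa2 and Rpa3, the other subunits, stood at -0.059 ± 0.078 and -0.057 ± 0.11. The 3 subunits form 1 trimer. Their control levels per kb of exon were 539 ± 18.3, 550 ± 12.2 and 544 ± 68.8 normalised counts, which differ by less than their spread. The control means were 3004, 1647 and 618 over 5578, 2993 and 1136 exon bases with all isoforms merged. The likeness per kb rests on these lengths and is uncertain. Lig1, which seals Okazaki fragments, had 4731.1, 4364.2 and 3772.4 against 3856.9, 4026.8 and 3581.1, with overlapping groups (log2 fold change -0.16 ± 0.083 SE, limma adjusted p = 0.361). Fen1, which removes their flaps, had 239 ± 18.0 and 216 ± 15.7, but 78.8% of its exon bases lie opposite exons of Gm10143, so its level is uncertain.

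The nucleotide supply genes had values on both sides of 0. Rrm1, the large subunit of ribonucleotide reductase, had 7956.5, 7659.3 and 7297.7 normalised counts in the controls, against 7049.1, 6582.1 and 6353.8 in the mutants, without overlap (log2 fold change -0.20 ± 0.055 SE, limma adjusted p = 0.114). Rrm2, the small subunit, which is made in S phase and limits the enzyme, had 3240.3, 3276.3 and 3323.9 against 3700.5, 3033.2 and 3236.8. Its mutants lay on both sides of the controls, which were closely spaced (log2 fold change 0.014 ± 0.070 SE, limma adjusted p = 0.942). Dut, which clears dUTP, stood at -0.016 ± 0.070 and the thymidylate synthase gene Tyms at -0.099 ± 0.077, both with overlapping groups.

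Chaf1b, a subunit of the assembly factor that places histones behind the fork, had 1334.2, 1292.5 and 1051.8 normalised counts in the controls, against 1010.2, 1047.8 and 871.4 in the mutants. Mutant library 2 was just below control library 3 (log2 fold change -0.32 ± 0.10 SE, limma adjusted p = 0.156). Chaf1a, its partner, had 1604 ± 114 and 1389 ± 139, with overlap, and 52.5% of its exon bases lie opposite exons of Ubxn6. The E-type cyclins, which drive entry into S phase, differed from each other in spread. Ccne1 had 542, 520.3 and 528 in the controls, against 440.6, 448 and 442.8 in the mutants, so each group was tight and the gap between them was wide. Its log2 fold change of -0.26 ± 0.067 (SE) had the smallest p of the 44 after Pole but did not pass the test (limma adjusted p = 0.0997). Ccne2 had 738 ± 18.4 and 710 ± 39.3, with overlap.

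**Figure D3:**
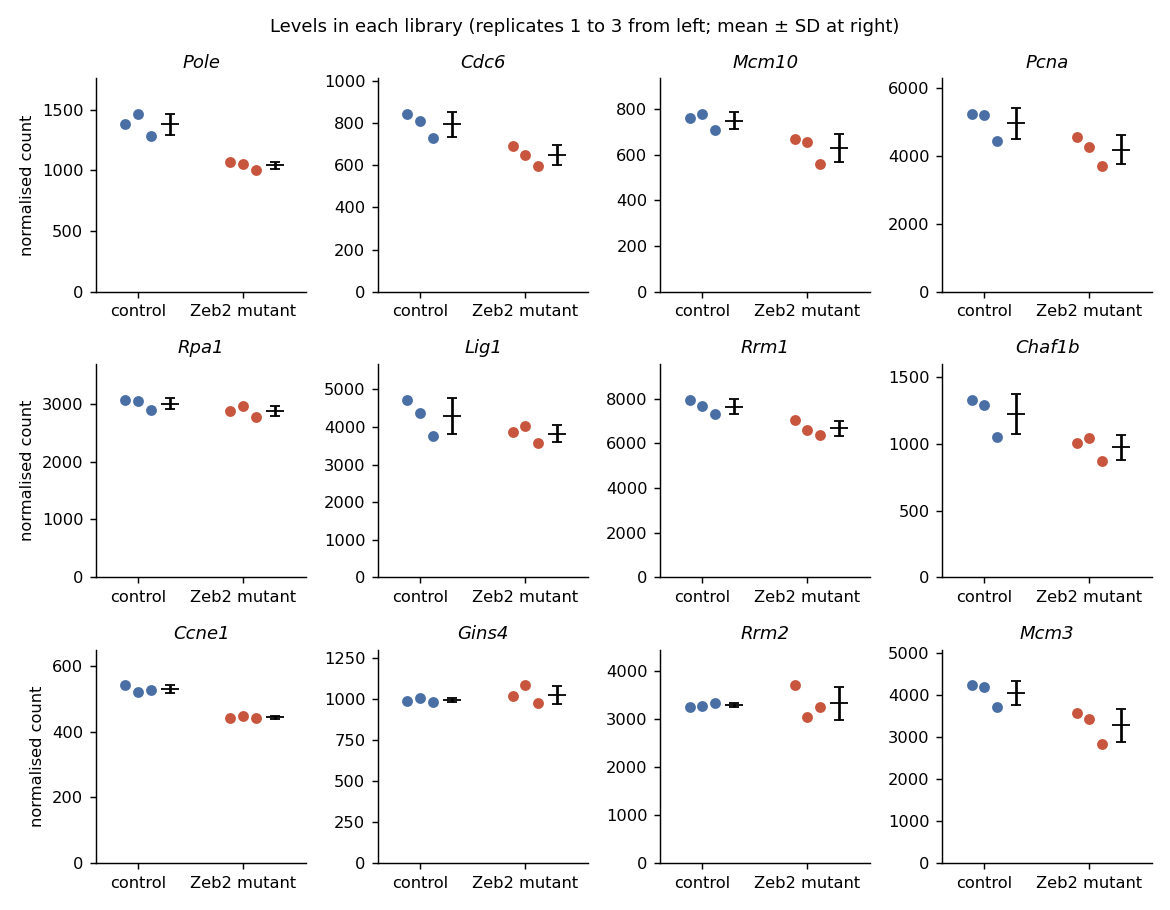
Normalised count (vertical axis, from 0) of 12 of the genes in the 3 control libraries (blue) and the 3 Zeb2 mutant libraries (red), each with its mean ± SD in black. Pole and Ccne1 have a gap between the groups, Rpa1, Lig1, Gins4 and Rrm2 overlap, and mutant library 3 is the lowest point for Mcm3, Mcm10, Pcna and Chaf1b.

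**Figure D4:**
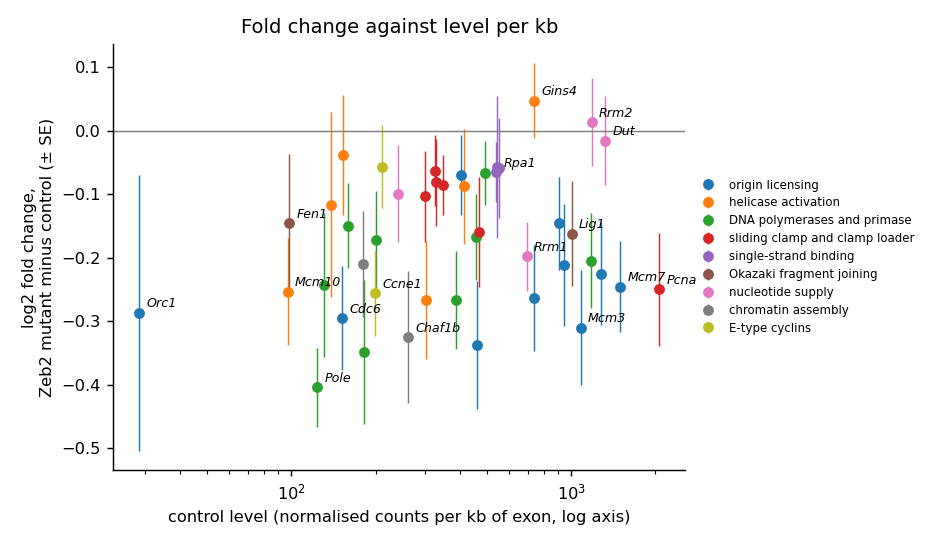
Log2 fold change with ± 1 SE (vertical axis) against the mean control level per kb of exon (horizontal axis, log scale) for the 44 genes, coloured by role. Pcna and Mcm7 are the highest per kb and Orc1 the lowest, with lengths that merge all isoforms. The genes above 0 (Gins4, Rrm2) stand among genes of similar level per kb that lie below 0.

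Other genes of replication lay lower too, and 0 of those below were called by limma in either direction. Of 33 other replication and fork genes 28 were below 0, with a median of -0.11. At an unadjusted p under 0.05, 11 of them were lower and 0 higher, against 8.31% and 9.01% of all genes. The lowest p was that of Recql4, a helicase gene of replication start, with 469.6, 391.3 and 413.8 normalised counts in the controls, against 298, 314.4 and 305.7 in the mutants (log2 fold change -0.47 ± 0.092 SE, limma adjusted p = 0.0560). Of 20 E2F factors and S phase regulators 18 were below 0, with a median of -0.18. At an unadjusted p under 0.05, 11 of them were lower and 1 higher, against the same shares of all genes. Dnmt1, the maintenance DNA methyltransferase, led them with 9279 ± 635 and 7636 ± 432 (SD, n = 3 each, limma adjusted p = 0.0777). Of 16 other nucleotide supply genes 14 were below 0 (median -0.12), with Shmt1, an enzyme of folate metabolism, at -0.44 ± 0.095 (limma adjusted p = 0.0682). Of 9 genes of histone supply and replication-coupled chromatin 8 were below 0 (median -0.14), with Cdca7 at -0.36 ± 0.10 (limma adjusted p = 0.121).

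Of 22 G2-M and mitosis genes 20 were below 0, with a median of -0.12, and 0 were called by limma. At an unadjusted p under 0.05, 3 were lower (13.6%, against 8.31% of all genes) and 0 higher. Kif11, a spindle motor, had the lowest p, at 5247 ± 302 and 4373 ± 334 (SD, n = 3 each, limma adjusted p = 0.0937). By library the G2-M median was -0.052, 0.026 and 0.029 in the controls, against 0.026, -0.055 and -0.29 in the mutants, so mutant library 1 was among the controls, mutant library 2 just under the lowest of them, and mutant library 3 far below. For the replication genes the medians of all 3 mutants lay below those of all 3 controls. Whether the lists differ was not tested.

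Retinal progenitor markers lay on both sides of 0; whether they differ from the replication genes was not tested. Of 19 markers 10 were below 0, with a median of -0.0041, and by library the median was -0.035, 0.044 and -0.027 in the controls, against -0.0061, 0.060 and -0.068 in the mutants. Sox9, a factor of progenitors and Müller glia, was the only one called by limma and fell, with 4266.8, 4396.7 and 4441.8 normalised counts in the controls, against 3793.5, 3563.4 and 3421.7 in the mutants (log2 fold change -0.28 ± 0.050 SE, limma adjusted p = 0.0379). Photoreceptor markers, from cells that have left the cycle, were above 0 for 12 of 13, with a median of 0.26. Their library medians were 0.0083, -0.083 and 0.13 in the controls, against 0.098, 0.33 and 0.46 in the mutants. Pde6a and Gnat1, of the rod phototransduction cascade, were called higher by limma, with control means of only 88.1 and 119. The most abundant markers, Rbp3, Otx2 and Crx, stood at 0.047 ± 0.073, -0.083 ± 0.071 and 0.089 ± 0.085 (SE). The summed level of the 13 was 114042, 105908 and 119392 in the controls, against 110315, 120777 and 133646 in the mutants. Mutant library 3 had both the lowest replication median and the highest photoreceptor median, and control library 3 was the lowest and the highest of the controls in the same way. The part of photoreceptor RNA in the replication values was not tested.

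**Figure D5:**
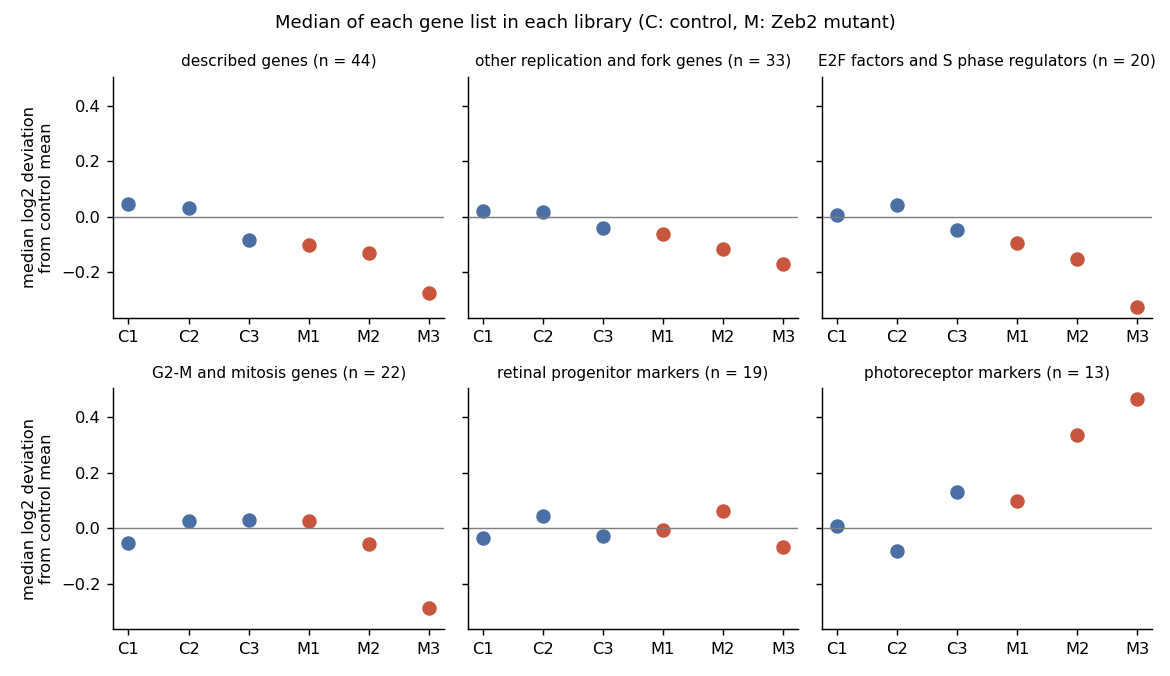
Median log2 deviation from the control mean (vertical axis) of 6 gene lists in each of the 6 libraries, with controls in blue (C1 to C3) and Zeb2 mutants in red (M1 to M3). The replication and E2F lists are lower in each mutant than in each control library, but C3 and M1 are close (-0.085 and -0.10 for the 44 genes). The G2-M list is lowest in M3, the progenitor list stays between -0.068 and 0.060, and the photoreceptor list is highest in M3.

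Transcripts of other cell types also differed between libraries. The summed level of 6 astrocyte markers was 516 to 969 normalised counts in the controls, against 6078, 4708 and 797 in the mutants, and 6 of 6 lay above 0. The summed level of 12 mesenchyme markers was 5003 to 5403 in the controls, against 12657, 9992 and 7007 in the mutants. Of 11 tested markers 9 were above 0, and Col6a1 and Col6a2 were called higher by limma. Foxd1 was lower, at -1.25 ± 0.30 (SE, limma adjusted p = 0.0855). By library the mesenchyme median was -1.16, 0.82 and 0.11 in the controls, against 1.59, 1.55 and -0.75 in the mutants. In mutant library 3 Col6a1 and Col6a2 (4361.1 and 649) were above every control. Col1a1, Col1a2 and Col3a1 (62, 58.9 and 6.1) were within the control range there. No gene of either list was at 0 in every library. The replication median was lowest in mutant library 3, where the astrocyte sum was within the control range and the mesenchyme sum was the lowest of the mutants. Leaving out mutant libraries 1 and 2, where the astrocyte sum is high, keeps 1 mutant library, number 3, which is the lowest for 38 of the 44 genes. The median of -0.27 is then the value of that library alone and is no independent check of the direction. The part of astrocyte and mesenchyme RNA in the other values was not tested.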

How the data were processed

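Poly-A RNA sequencing of P2 mouse retina was compared between 3 control and 3 Zeb2 mutant libraries, grouped by sample title. Each value is a normalised count, a signal per gene that the authors scaled per library, per the file headers, and deposited with 1 decimal; 0 other columns of values were present. Per the submitters' processing notes, the build was GRCm38 and the tools included DESeq2, HTSeq, STAR 2.4.2a and cutadapt; their roles, order and strand setting are not given in the sources used here. In each library 100% of values lay within 0.06 of whole multiples of 1 step, so whole reads were recovered (26041200 to 32614805 per library); on these edgeR called 180 genes and DESeq2 874.

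Differences were tested in R 4.3.3 by limma 3.58.1 with a trend of variance on level, on log2(normalised count + 1), over 16064 genes averaging 10 or more, 2-sided, with Benjamini-Hochberg adjustment over all of them and a threshold of 0.05. The genes described, the lists and the tests were chosen with earlier results of these data known. All 44 genes could be named; values in every library were given for called genes, the smallest p of each role, Pcna and the 2 highest folds, and also for Cdt1, Mcm3, Orc1 and Pole2, chosen after their values were seen. From other lists the called genes or the smallest p were taken, except 1 gene that is not reported here; the E2f genes were chosen after their values were seen. For levels per kb, exon lengths came from GENCODE M21 with all isoforms merged, which can understate levels of genes with long rare exons.

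Settings varied were the pseudocount (0.1, 5), the filter (none, or averaging 50 or more), 3 scalings (TMM, equal totals, quantile), edgeR 4.0.16 and DESeq2 1.42.0 on the recovered reads, array weights, a replicate block, leaving out each library, and omitting both mutant libraries 1 and 2. The limma, edgeR and DESeq2 fits were tested on simulated data.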

Additional observations from a re-analysis of the deposited data

How the results depend on the processing

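The median log2 fold change of the 44 genes was below 0 under all 18 alternatives, between -0.11 and -0.22 with 1 library left out. Without mutant libraries 1 and 2 it was -0.27, but this is the value of mutant library 3 alone, the lowest library; the controls then give the spread, the lone mutant is assumed to vary like them, and the direction gains no support from it. Under the scalings the median of all genes stayed between -0.011 and 0.0080. The count of genes called lower was 1 in the main limma test, 7 with DESeq2, 3 with the replicate block (Pole, Pola2 and Mcm3), and 0 to 1 with 1 library left out; it was 1 under the remaining alternatives, where the gene was Pole except without mutant libraries 1 and 2. The count called higher was 0 throughout. Pole was called in 13 of 18 alternatives, and its adjusted p ranged from 8.65e-05 to 0.124. Zeb2 was called with DESeq2 (log2 fold change -0.30, adjusted p = 0.0155) and without mutant library 1 (-0.40, limma adjusted p = 0.0375); with 1 library left out its log2 fold change ranged from -0.40 to -0.20. Over all genes limma called 184, against 874 with DESeq2, 248 with the replicate block and 27 to 600 with 1 library left out.

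Replicate numbers are shared between the groups, but deviations of same-numbered libraries correlated at 0.016, 0.15 and -0.063, so the numbers were not taken to pair the samples. Genes near 0 changed direction. Without mutant library 3 the log2 fold change of Dut was 0.052, of Gins2 0.053, of Gins3 0.019, of Rpa2 0.034 and of Rpa3 0.024. Dut was at 0.021 with quantile scaling and 0.028 without control library 1, Gins3 at 0.0086 without control library 3, and Rpa3 at 0.042 without control library 2. Without mutant libraries 1 and 2 Gins4 was at -0.028, Rrm2 at -0.019 and Rfc1 at 0.025, and without mutant library 1 Rrm2 was at -0.066. With 1 library left out the lowest log2 fold changes were -0.060 for Dut, -0.21 for Gins2, -0.105 for Gins3, -0.12 for Rpa2 and -0.13 for Rpa3, and the highest for Rrm2 was 0.077. The causes were not tested. Depth was lowest for Orc1 (69 to 112 reads) and Fen1 (196 to 258), where counting error is larger than for the other genes; its share of the spread was not tested.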

Other observations

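Genes of replication stress and repair, which act at damaged or stalled forks, were measured as well. Of 17 genes 16 had a log2 fold change below 0, with a median of -0.17, and 0 were called by limma in either direction. At an unadjusted p under 0.05, 6 were lower and 0 higher, against 8.31% and 9.01% of all genes. By library the median of the list was -0.0057, 0.044 and -0.025 in the controls, against -0.055, -0.20 and -0.26 in the mutants. Of the 12 genes with a RefSeq promoter window, 4 held one of the E2F words.

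Of the E2F family, the repressors E2f7 and E2f8 had log2 fold changes of -0.30 ± 0.070 and -0.25 ± 0.075 (SE, limma adjusted p = 0.0853 and 0.144), and the activator E2f1 -0.13 ± 0.096 (limma adjusted p = 0.545). E2f2, E2f6, E2f3 and E2f4 were lower as well, at -0.27 ± 0.11, -0.22 ± 0.082, -0.12 ± 0.056 and -0.10 ± 0.055. Their limma adjusted p was 0.246, 0.221, 0.317 and 0.379, so repressors and activators were not set apart by these values. E2f5 stood on the other side, at 0.17 ± 0.069 (limma adjusted p = 0.265).

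Of 14 amacrine and horizontal cell markers 11 were below 0, with a median of -0.38, and Lhx1 and Tfap2c, transcription factors of horizontal and amacrine cells, were called lower by limma. In this list 9 were lower and 2 higher at an unadjusted limma p under 0.05, against 8.31% and 9.01% of all genes. The 2 higher were Gad2 and Calb1, at 0.39 ± 0.093 and 0.35 ± 0.13 (SE, limma adjusted p = 0.0858 and 0.222). Of 12 retinal ganglion cell markers 4 were below 0 (median 0.071), and 0 were called. At an unadjusted p under 0.05, 0 of the 12 were lower and 2 higher, against 8.31% and 9.01% of all genes. Of the endothelial and pericyte, microglia, blood, pigment epithelium and lens lists, 0 genes were called by limma. At an unadjusted p under 0.05, 1 of 8 microglia markers was higher and 1 of 7 lens markers lower, against the same shares of all genes. All 8 microglia markers were above 0 (median 0.39) and 6 of 7 pigment epithelium markers (median 0.20), while 8 of 9 endothelial and pericyte markers (median -0.23), 3 of 3 tested blood markers (median -0.64) and 7 of 7 lens markers (median -0.92) were below 0. The summed level of 7 lens markers was 1114, 7712 and 2316 normalised counts in the controls, against 851, 585 and 3090 in the mutants.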
